A study of Rattus norvegicus with 3 samples.

Results

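The matricellular proteins were read in RNA of the rat osteosarcoma line COS1NR, of the malignant fibrous histiocytoma (MFH) line MFH1NR and of cultured mesenchymal stem cells (MSCs). The members were the 10 genes Fn1, Sparc, Thbs1, Thbs2, Tnc, Postn, Ccn1, Ccn2, Ccn3 and Ccn4. They were found through the RefSeq accessions of the array's probes, which gave 14 probes for the 10 genes, out of 13340 genes named on the array. All cells came from F344 rats. COS1NR and MFH1NR are each a single cell line from a tumor induced with 4-HAQO, and both are stated to carry a p53 mutation. The MSCs were grown from femur bone marrow by adherence to plastic, unsorted by surface markers, in medium with more serum than that of the lines. The age and sex of the rats are not given in the sources used here. Each cell type was hybridized to 1 array, so the spread between cultures is unknown, no difference was tested, and each ratio describes these arrays.

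Matricellular proteins are secreted into the matrix, where most of them adjust how cells attach, move and respond to growth factors rather than bear load. Fibronectin, the product of Fn1, is the most structural of the group and is assembled by cells into fibers that many of the others bind. In bone marrow stroma and bone these genes are known as products of mesenchymal cells, and several, among them Ccn1 and Ccn2, are known to respond within hours to serum, stretch and TGF-beta.

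Intensities are the processed signals of Agilent's software, with the background removed, and they were not scaled between arrays. Ratios were taken after dividing each intensity by the 75th percentile of its own array, which was 589 for MSCs, 774 for COS1NR and 994 for MFH1NR. Where a gene had several probes, the one with the highest mean in log2 stood for it, and the gene was used where the software called that probe well above background on at least 1 array. This held for 10 of the 10 members and for 10004 genes in all. Higher and lower are used below for differences of at least 2-fold, or 1 in log2. The sarcoma lines shared 1 slide, which did not hold the MSCs. In a ratio to MSCs, cell type therefore cannot be told apart from slide. The median difference in log2 ratio between a pair of probes of the same gene was 0.28 for COS1NR over MSCs, 0.31 for MFH1NR over MSCs and 0.15 for MFH1NR over COS1NR (1890 genes).

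The matricellular genes were mostly far below MSCs in both lines, with Ccn1 going the other way. In COS1NR, 9 of the 10 were lower than in MSCs, against 19.4% of all genes used, and 1 was higher, against 20.0%. In MFH1NR, 8 were lower, against 21.2%, and 1 was higher, against 19.0%. The members lower in both lines were 8 of 10 (Fn1, Sparc, Thbs1, Thbs2, Tnc, Postn, Ccn2 and Ccn4), against 12.9% of all genes, and Ccn1 alone was higher in both, against 10.8%. No member (0 of 10) was higher in one line and lower in the other, against 2.24%. Ccn3 was lower in COS1NR and within 2-fold of MSCs in MFH1NR. The lines share the MSC array, so a level that is off in MSCs enters both ratios at once. The median log2 ratio of the members was -2.94 in COS1NR and -2.70 in MFH1NR, where the median of all genes was 0.11 and 0.02. The members themselves spread from -9.51 to 4.10 in COS1NR and from -9.84 to 3.48 in MFH1NR.

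**Figure D1:**
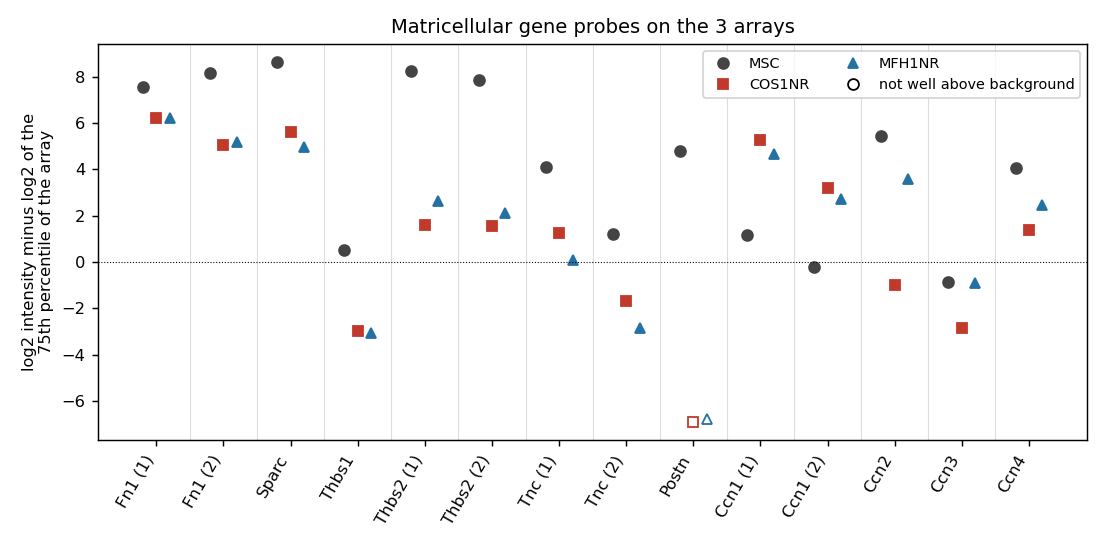
Log2 intensity of each of the 14 matricellular probes after division by the array's 75th percentile, with MSCs as circles, COS1NR as squares and MFH1NR as triangles, open where not well above background. Levels can be compared within a column but not between columns, since probes differ in brightness. MSCs were highest in all columns except those of Ccn1, and MFH1NR lay next to MSCs for Ccn3.

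Fibronectin carries the RGD site bound by integrins and was measured by a pair of probes for the same transcript accession. By the first, MSCs had an intensity of 111058, COS1NR of 58302 and MFH1NR of 74196, which gives ratios to MSCs of 0.400 and 0.396. The second probe, printed 10 times on each array, gave a mean intensity of 166391 ± 6771 for MSCs, 25910 ± 590.4 for COS1NR and 35878 ± 963 for MFH1NR (SD over 10 spots of 1 array). Its ratios were 0.119 in COS1NR and 0.128 in MFH1NR. Both probes thus put the lines below MSCs, but the second gave a decrease larger by 1.75 in log2 in COS1NR and 1.63 in MFH1NR, where 1 gene in 10 had probes that differed by more than 0.91 and 0.98. Which transcripts of Fn1 either probe detects is not given in the files, and the size of its decrease depends on the probe. Without scaling between arrays, the first probe was under 2-fold in both lines, with log2 ratios of -0.93 and -0.58. It was also under 2-fold in MFH1NR after quantile normalization and with spike-in scaling.

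Between the lines, the log2 ratio of MFH1NR over COS1NR was -0.01 by the first probe and 0.11 by the second, both below the usual difference between probes. After scaling, the 10 spots of the second probe overlapped between the lines. Before scaling they did not, with 24912 to 27063 in COS1NR and 34755 to 37483 in MFH1NR. The order of the lines for Fn1 therefore rests on the scaling.

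Sparc encodes osteonectin, a collagen-binding glycoprotein abundant in bone that loosens cell adhesion. By its single probe, MSCs had an intensity of 233890, COS1NR of 37886 and MFH1NR of 31363. Relative to MSCs these were ratios of 0.123 and 0.0794, an 8.11-fold and a 12.6-fold decrease. COS1NR lay above MFH1NR by 0.63 in log2, which is under 2-fold and turned to 0.16 in the other direction with spike-in scaling.

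The thrombospondins are trimeric glycoproteins that bind CD36, CD47 and integrins and hold back the growth of vessels, and Thbs1 also activates latent TGF-beta. Thbs2 had one of the largest decreases among the members measured above background on all arrays, with Ccn2 between its probes in COS1NR. For MSCs, COS1NR and MFH1NR, its probe of higher mean intensity read 180006, 2352 and 6203, and the other read 137636, 2272 and 4294. Its ratios to MSCs were 0.00995 and 0.0126 in COS1NR and 0.0204 and 0.0185 in MFH1NR, so the probes gave nearly the same decrease. On both probes the MSC spots were read from a scan at low gain and those of the lines from one at high gain. The likeness of the probes therefore does not check the scan. Of 9635 genes with a ratio in COS1NR, 87 had a lower one than Thbs2, and of 9817 in MFH1NR, 208. Between the lines, MFH1NR was higher by 2.05-fold by the first probe and by 1.47-fold by the second, so the 2-fold threshold was passed by the first only.

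For Thbs1, MSCs had an intensity of 836, COS1NR of 98.1 and MFH1NR of 121. All 3 were well above background. COS1NR and MFH1NR thus had ratios of 0.0893 and 0.0854, and the lines differed by 0.06 in log2, under the usual difference between probes. The log2 ratio of Thbs2 minus that of Thbs1 was -3.17 in COS1NR and -2.06 in MFH1NR, differences in which a scaling by 1 factor per array cancels, unlike quantile normalization.

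Tenascin-C, a hexameric protein of developing and healing tissue that counters adhesion to fibronectin, also had a pair of probes. The probe of higher mean intensity read 10019, 1824 and 1067 for MSCs, COS1NR and MFH1NR, and the other read 1373, 242 and 137. Both gave the order MSCs, COS1NR, MFH1NR. Tnc had ratios to MSCs of 0.139 and 0.134 in COS1NR and 0.0631 and 0.0591 in MFH1NR. Tnc was the one member lower in MFH1NR than in COS1NR, by 2.20-fold and 2.27-fold, against 14.2% of all genes lower. Without scaling and with spike-in scaling this was under 2-fold, at log2 ratios of -0.77 and -0.34.

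Periostin, a fasciclin-domain protein of periosteum and ligament that binds integrins and promotes collagen crosslinking, was well above background in MSCs only. For Postn, MSCs had an intensity of 16339, COS1NR of 6.45 and MFH1NR of 9.14, and on the arrays of the lines the lowest intensity well above background was 29.4 and 30.1. COS1NR was thus at least 730.4-fold lower than MSCs, and MFH1NR at least 917-fold lower. These are bounds against the lowest intensity well above background on each line's array, and they depend on the background correction. With normexp the log2 values were -8.19 and -8.28, against -9.51 and -9.84 here. Only 4 genes in COS1NR and 12 in MFH1NR had a lower ratio or bound. A bound follows how bright the probe is in MSCs, so this does not rank the decrease itself. No ratio can be given between the lines, since the probe was not well above background in either.

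**Figure D2:**
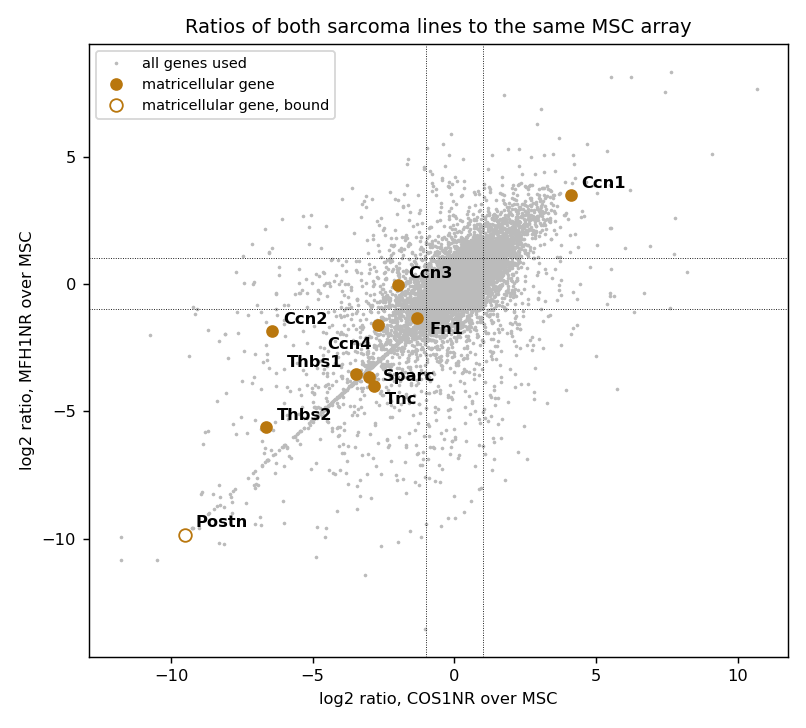
Log2 ratio of COS1NR over MSCs on the x axis and of MFH1NR over MSCs on the y axis for all genes used (grey) and the 10 matricellular genes (brown, open for the bound of Postn), with dotted lines at 2-fold. Both axes share the MSC array, and genes seen in MSCs only line up on a diagonal because both ratios are then bounds. Ccn1 is the one member at the upper right, and Ccn2 lies far to the left with a small drop on the y axis.

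The CCN proteins are cysteine-rich secreted regulators that bind integrins and heparan sulfate. Ccn1 (formerly Cyr61) and Ccn2 (formerly Ctgf) are the usual readouts of the transcription factors YAP and TEAD and are mostly described as moving together. Here they moved apart. Ccn1 was higher in both lines, Ccn2 and Ccn4 were lower in both, and Ccn3 was lower in COS1NR.

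Ccn1 was measured by a pair of probes. The probe of higher mean intensity read 1330.1 for MSCs, 29968 for COS1NR and 25062 for MFH1NR, and the other read 512, 7181 and 6601. Both lines stood far above MSCs by both probes, and COS1NR was above MFH1NR by less than 2-fold. Relative to MSCs, Ccn1 had ratios of 17.2 and 10.7 in COS1NR and 11.2 and 7.64 in MFH1NR. Of the genes with a ratio, 57 had a higher one than Ccn1 in COS1NR and 147 in MFH1NR. The lines differed by 0.62 and 0.48 in log2, and the former turned to 0.17 in the other direction with spike-in scaling.

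Ccn2 was measured by a probe printed 10 times on each array. Its mean intensity was 25445 ± 778 for MSCs, 389.7 ± 10.8 for COS1NR and 11846 ± 343 for MFH1NR (SD over 10 spots of 1 array). The spots ran from 24029 to 26725, from 374 to 408 and from 11292 to 12296, so the arrays did not overlap. Its ratios to MSCs were 0.0117 in COS1NR and 0.276 in MFH1NR, an 85.7-fold and a 3.63-fold decrease. Between the lines, Ccn2 was 23.7-fold higher in MFH1NR, and 117 of 9330 genes had a higher ratio. With spike-in scaling its log2 ratio was 5.36 in place of 4.56, and the median of all genes in this comparison moved from -0.09 to 0.71. The standard error of the log2 ratio of 4.56 was 0.02 over the spots, which covers the printing and scanning of an array and neither culture nor labeling.

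**Figure D3:**
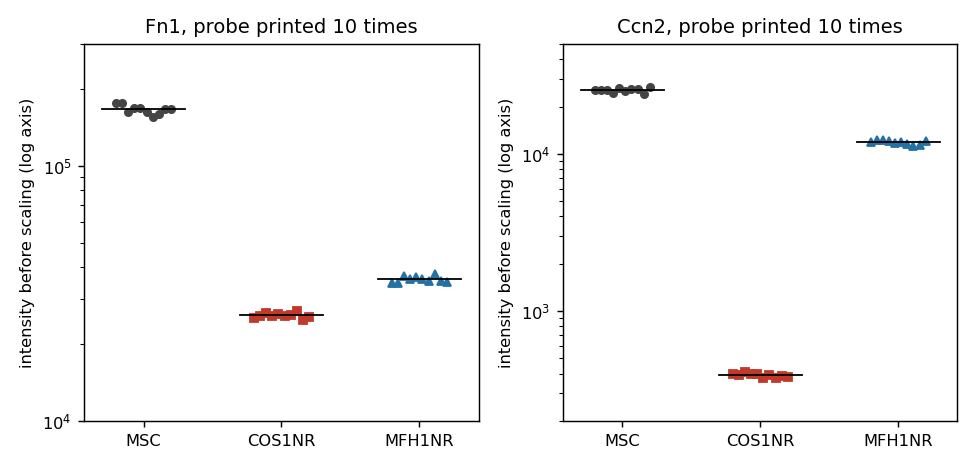
Intensity before scaling, on a log axis, of the 10 replicate spots of the Fn1 probe (left) and of the Ccn2 probe (right) on each array, with their mean as a line. The spots of an array lie close together, COS1NR is lowest for both genes, and MFH1NR lies close to COS1NR for Fn1 and closer to MSCs for Ccn2.

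A scaling by 1 factor per array cancels in the contrast of Ccn1 with Ccn2, which quantile normalization does not do. The log2 ratio of Ccn1 minus that of Ccn2 was 10.52 in COS1NR and 5.34 in MFH1NR. For Ccn2 the MSC spots were read from the scan at low gain and those of both lines from the scan at high gain. For the Ccn1 probe of higher mean intensity it was the reverse. The other Ccn1 probe was read at high gain on all arrays and gave the ratios of 10.7 and 7.64. Both Thbs2 probes had the same mix of scans as Ccn2. For Ccn2 and Thbs2 the part of the scan in the ratios was not tested.

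Ccn4 (formerly Wisp1), known as a target of Wnt signaling, read 9870 for MSCs, 2001 for COS1NR and 5429 for MFH1NR. It ranked in the order MSCs, MFH1NR, COS1NR. It had ratios to MSCs of 0.154 and 0.326, and MFH1NR was 2.11-fold higher than COS1NR. Without scaling, its log2 ratio in MFH1NR was -0.86, under 2-fold.

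Ccn3 (formerly Nov), which often opposes Ccn2 in mesenchymal cells, read 324 for MSCs, 107 for COS1NR and 532 for MFH1NR. Its ratio to MSCs was 0.251 in COS1NR. In MFH1NR it was 0.973, a log2 ratio of -0.04 that is under the usual difference between probes and turned to 0.72 without scaling. MFH1NR was thus 3.88-fold higher than COS1NR, while MSCs and MFH1NR could not be ordered.

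Against COS1NR, 4 of the 10 members were higher in MFH1NR (Thbs2, Ccn2, Ccn3 and Ccn4), against 11.7% of all genes. They include 3 of the 4 CCN genes. Ccn2 and Ccn3 also passed a 3-fold threshold, at which the share of all genes was not counted. With normexp the log2 ratio of Ccn3 was 1.42 in place of 1.96, which is under 3-fold. The lines shared a slide, so this comparison has no slide difference.

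The promoters of Ccn1 and Ccn2 are shown because the genes moved apart, and that of Postn because it had the largest decrease. The sequences are from RefSeq on the GRCr8 build and run from 250 bases before to 50 bases after the gene's start, 5′ to 3′ on the gene's strand. Ccn1 is at chr2:237225640-237225939 on the minus strand, Ccn2 at chr1:22624565-22624864 on the minus strand and Postn at chr2:140677811-140678110 on the plus strand. The array was annotated against an earlier build, and no probe was placed on these coordinates. Capitals mark matches on either strand to GGAATG (bound by TEAD), CAGAC (bound by SMAD) and TATAAA (the TATA box), which did not overlap each other.
Ccn1: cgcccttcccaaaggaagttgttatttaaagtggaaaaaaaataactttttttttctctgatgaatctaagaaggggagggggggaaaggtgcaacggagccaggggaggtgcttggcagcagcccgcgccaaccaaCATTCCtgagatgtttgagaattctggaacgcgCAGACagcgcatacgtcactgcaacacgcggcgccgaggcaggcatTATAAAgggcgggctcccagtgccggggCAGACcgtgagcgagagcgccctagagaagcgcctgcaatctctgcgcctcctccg
Ccn2: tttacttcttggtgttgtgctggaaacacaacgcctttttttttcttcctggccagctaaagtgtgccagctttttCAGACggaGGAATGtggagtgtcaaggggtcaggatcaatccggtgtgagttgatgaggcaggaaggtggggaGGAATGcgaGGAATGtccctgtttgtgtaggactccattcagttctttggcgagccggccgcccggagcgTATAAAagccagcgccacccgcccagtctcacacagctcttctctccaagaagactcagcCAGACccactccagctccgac
Postn: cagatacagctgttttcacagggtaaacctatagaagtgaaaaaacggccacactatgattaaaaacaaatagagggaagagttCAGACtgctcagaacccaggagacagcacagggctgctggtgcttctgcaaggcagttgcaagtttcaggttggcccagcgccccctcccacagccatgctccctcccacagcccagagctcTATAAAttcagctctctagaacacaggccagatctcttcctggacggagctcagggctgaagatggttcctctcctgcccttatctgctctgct

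Promoters were given for 6 of the members (Sparc, Thbs1, Tnc, Postn, Ccn1 and Ccn2). GGAATG was found in 4 of them (Sparc, Thbs1, Ccn1 and Ccn2), against 14.2% of 33469 promoters. Ccn2 held 3 copies, at 166, 101 and 92 bases before the start, and 0.0956% of all promoters held as many. Ccn1 held 1 copy, at 113 bases before the start. TATAAA was found in 4 (Tnc, Postn, Ccn1 and Ccn2), against 14.2%, and CAGAC in 5, against 50.1%. Neither the CArG box of SRF, in 1.64% of all promoters, nor TGANTCA of AP-1, in 7.33%, was found in the 6 windows, which says only that these letters are not in them. Ccn1, higher in both lines, and Ccn2, lower in both, thus share all the 3 kinds of match marked in capitals. A match is a description and not a bound site.

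The lists around the matricellular genes were read in the same way, with the median over all genes given above. Of 20 other YAP and TEAD target genes, 13 were used. In COS1NR 9 were lower than in MSCs and 0 higher, and in MFH1NR 8 were lower and 1 higher (Ajuba, at 2.46), with median log2 ratios of -1.84 and -1.52. Lower in both lines were 6, with the largest mean decreases in Igfbp3 (log2 ratio -3.76 in COS1NR, a bound of -6.35 in MFH1NR), Nuak2 (-4.47, a bound of -5.43) and Gadd45b (-3.27 and -3.14). None of the 13 was higher in both lines, against 10.8% of all genes, a share at which 13 genes may well hold none.

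Of the Hippo pathway components, 11 of 15 were used, and Yap1 was among the 4 without a named probe. Wwtr1, which encodes TAZ, a relative of YAP, had log2 ratios of -0.09 in COS1NR and -0.53 in MFH1NR. Tead2, a DNA-binding partner, was the one gene of the list higher in both, with 2.28 and 3.03. Stk3, a kinase of the pathway, was also higher in COS1NR (1.33) and Tead3 in MFH1NR (1.09), so that 2 genes were higher in each line. Lower were 1 gene in COS1NR (Vgll4) and 0 in MFH1NR, and the medians were 0.40 and 0.25. Most of the components used were thus within 2-fold of MSCs.

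SRF, which binds the CArG box, and its coactivators MRTF also act on Ccn1 and Ccn2. Of 16 genes in their list 12 were used, and 10 were lower than in MSCs in each line, 9 of them in both. Tagln, an actin-binding protein of contractile cells, had a bound of -11.77 in COS1NR and a log2 ratio of -9.92 in MFH1NR. Cnn1 had bounds of -6.60 and -6.93, and Myl9 had -6.29 and -3.51. Srf itself had -0.25 and -0.27. Myl9, like Ccn2, was nearer to MSCs in MFH1NR than in COS1NR, while Fhl1 went the other way (-0.44 and a bound of -6.43). Between the lines, 2 of 11 genes of this list were higher in MFH1NR and 1 was lower.

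The TGF-beta list, with 13 of 16 genes used, had 9 genes lower in COS1NR and 6 in MFH1NR, 5 of them in both, with medians of -1.87 and -0.53. Tgfb3, a ligand, had log2 ratios of -2.13 and -3.54, and Smad3, a transducer of the signal, had bounds of -3.11 and -3.44. Smad6, an inhibitor of the signal, was the 1 gene higher than in MSCs in MFH1NR (1.25). Between the lines, 4 of 12 genes were higher in MFH1NR (Tgfb1, Smad6, Smad7 and Bambi) and 3 were lower, with a median of 0.70.

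**Figure D4:**
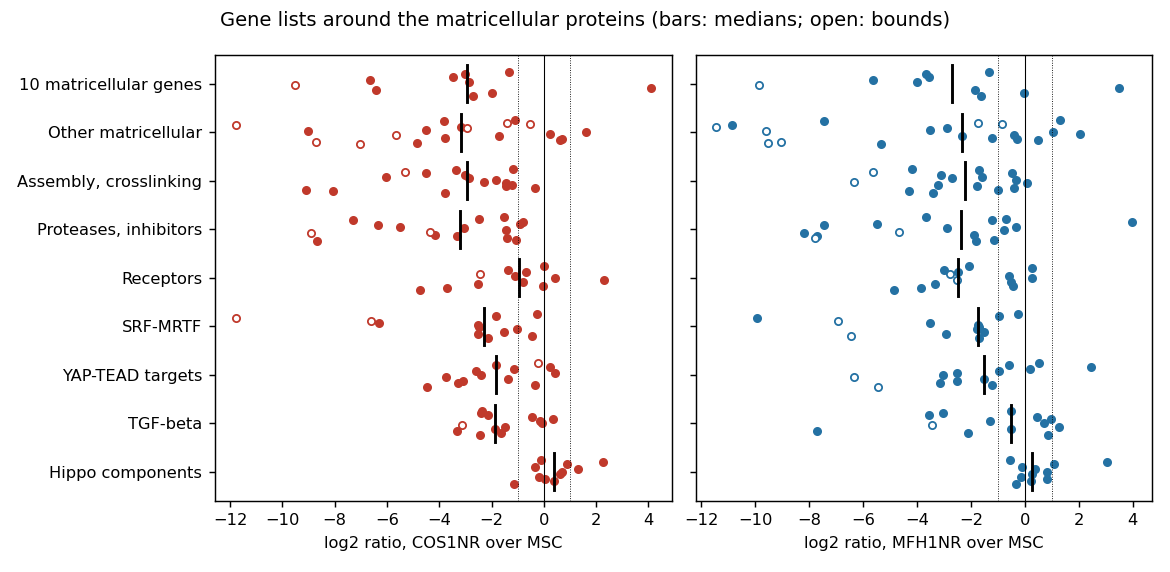
Log2 ratio to MSCs of each gene in COS1NR (left) and MFH1NR (right) for the 10 matricellular genes and 8 gene lists, with medians as bars, bounds as open circles and dotted lines at 2-fold. The medians of the matrix lists lie below -2 in both lines, and that of the Hippo components lies just above 0.

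Of 26 other matricellular and related secreted genes 19 were used, and 12 were lower in both lines and 1 higher in both. Spp1 and Fbln1 (2.03) were higher in MFH1NR only. The largest mean decreases were those of Smoc2 (a bound of -11.78 in COS1NR and -10.84 in MFH1NR), a relative of Sparc, of Tnn, a relative of Tnc (-9.02 and a bound of -9.59), and of Mgp, an inhibitor of calcification (bounds of -8.70 and -9.03). The gene higher in both was Tnr, a tenascin best known from the nervous system, with 1.62 and 1.06. The list's medians were -3.16 and -2.32.

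The list of fibronectin assembly and crosslinking, which holds the fibrillar collagens too, had 11 of 16 genes lower in both lines and 0 higher, with medians of -2.93 and -2.22. Col3a1 had log2 ratios of -8.05 and -4.29, Fbn2 had bounds of -5.31 and -5.64, and Plod2, which modifies collagen for crosslinking, had -2.30 and a bound of -6.31. Of the proteases that cleave these proteins and their inhibitors, 11 of 16 were lower in both and 0 higher in both, with Mmp3 higher in MFH1NR (3.96). Plau had a bound of -8.90 in COS1NR and -8.18 in MFH1NR, and Mmp13 had -6.34 and -7.43. Medians of this list were -3.19 and -2.37.

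Of 20 receptors of these proteins 13 were used, and 6 were lower than in MSCs in COS1NR, 8 in MFH1NR and 5 in both. Cd36, which binds thrombospondins, was the 1 receptor higher in COS1NR, with a log2 ratio of 2.30, and was lower in MFH1NR by a bound of -2.52. The median log2 ratios of the receptors were -0.94 for COS1NR and -2.47 for MFH1NR. The fibronectin receptor chains Itga5 and Itgb1 had log2 ratios of -1.37 and -0.68 in COS1NR and -3.01 and -2.47 in MFH1NR. Itgb5 had -1.10 and -0.58, Itga3 had 0.00 and -2.07, and Itgb3 had bounds of -2.44 and -2.77. Itga4 was dim, at 19.3 in MSCs and 39.7 in MFH1NR, and not well above background in COS1NR. Lower in both by the largest mean were Plaur (-4.74 and -4.86), Egfr (-3.68 and -3.83), which binds repeats of tenascin-C, and the syndecan Sdc4 (-2.51 and -3.34), which works with integrins on fibronectin.

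The labels were checked against markers. The MSC surface markers were well above background in MSCs for 4 of 4 genes, with Nt5e (log2 ratio -3.10 in COS1NR and -2.51 in MFH1NR) and Eng (bounds of -4.65 and -4.98) lower in both lines. Thy1 had a bound of -6.96 and a log2 ratio of -0.83, and Cd44 had -0.57 and -0.93. In the MSCs so were 14 of 14 macrophage markers, of which 8 remained so in COS1NR and 7 in MFH1NR, and all 14 were lower in both lines. Their summed scaled level was 178 for MSCs, 9.70 for COS1NR and 4.83 for MFH1NR, and Tyrobp had log2 ratios of -8.28 and -8.36, with Lyz2 (bounds of -10.50 and -10.82), C1qa (bounds of -7.93 and -8.26), Itgam, Ptprc, Adgre1 and Mrc1 not well above background in either line. Some matricellular genes are also made by macrophages, and the part of these cells in the MSC values was not tested. Fewer cells of a type and less RNA per cell cannot be told apart in such bulk RNA. The fibroblast markers were well above background for 7 of 7 genes in MSCs, with a summed scaled level of 1051 against 133 in COS1NR and 276 in MFH1NR. Col3a1 was the brightest of them in MSCs and weighs most in that sum. Lower in both lines were Col3a1, Pdgfrb (-4.12 and -2.89), Dcn (-2.58 and a bound of -10.27) and Lum. Col1a2 (-9.09 and -0.98) and Pdgfra (-4.82 and -0.27) were lower in COS1NR only. Col1a1 was within 2-fold of MSCs in both lines (-0.33 and -0.38). For smooth muscle 3 of 3 genes were lower in both lines, Tagln, Cnn1 and Myh11 (-3.33 and -2.08). Endothelial markers were used for 2 of 6 genes, with summed scaled levels of 0.564, 0.164 and 0.104 in the order MSCs, COS1NR, MFH1NR, and Kdr had -2.35 and -2.68 while Cdh5 had 0.50 and a bound of -0.55. Of 4 platelet markers used, Pf4 was lower in both lines, by bounds of -8.50 and -8.83. Gp1bb was lower in COS1NR (-2.04) and at -0.68 in MFH1NR, Gp9 had 1.71 and 0.37, and Ppbp had a bound of -0.86 and a log2 ratio of 0.00. Of 6 osteoblast markers used, 4 were well above background in COS1NR and 5 in MFH1NR, with median log2 ratios of -1.89 and -1.07. Their summed scaled levels of 75.5 for MSCs, 30.8 for COS1NR and 153 for MFH1NR came mostly from Spp1. Bglap (-2.54 and -2.44) and Ibsp (-3.82 and -7.43) were lower in both lines, while Spp1 was lower in COS1NR (-1.09) and higher in MFH1NR (1.29). Sp7 was well above background in MFH1NR only, where it was higher than in MSCs by a bound of 1.83.

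For each member seen on all arrays, the gene with the most similar pair of ratios to MSCs was looked up by Euclidean distance in log2, over the 7927 genes that were above background throughout. The nearest to Ccn2 was Cd248, at 0.46, and only 2 genes lay within 0.5. The nearest to Thbs2 was Pgf at 0.20 and to Ccn1 was H1f4 at 0.09. Patterns like those of Ccn2, Thbs2 and Ccn1 were shared by 1 to 3 other genes within this distance. That of Fn1 by its first probe was shared by 261 genes, the nearest being RT1-CE4 at 0.05. Few genes have large ratios, so these counts follow the size of the ratios and do not show a rare pattern. For Sparc, Thbs1, Tnc, Ccn3 and Ccn4 the nearest were Sdsl, Nacad, Adra1b, Dbndd2 and Runx1, at 0.06, 0.02, 0.12, 0.05 and 0.06. With 3 arrays such likeness rests on 2 ratios.

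**Figure D5:**
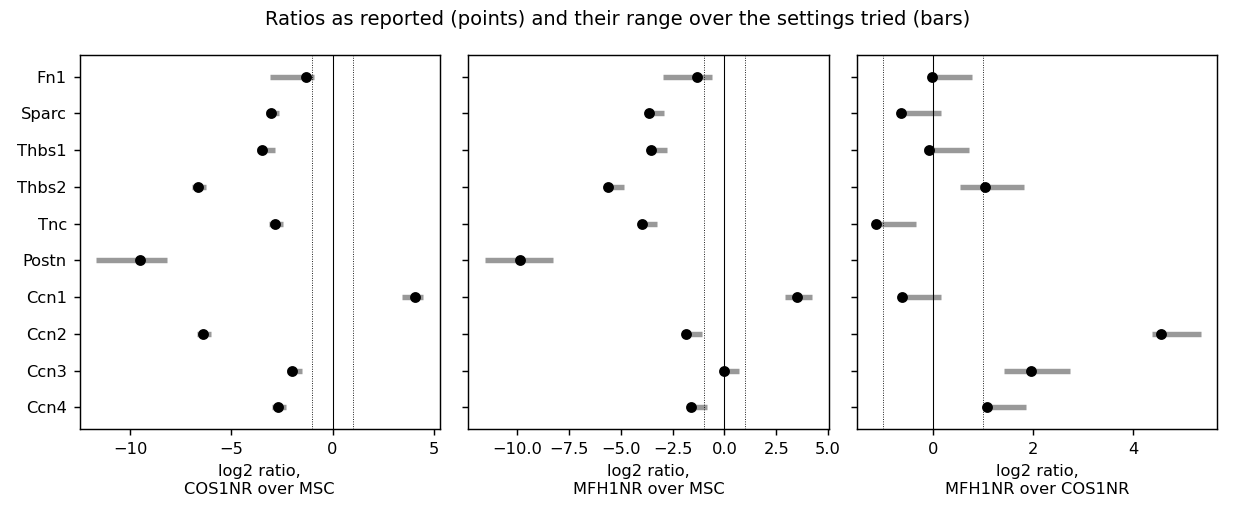
Log2 ratio of each member as reported (points) and its lowest to highest value over the settings tried for scaling, background, probe choice and filters (bars), for the 3 comparisons, with dotted lines at 2-fold. The members below MSCs stay left of 0 apart from Ccn3 in MFH1NR, and between the lines Ccn2, Ccn3 and Ccn4 stay right of the 2-fold line.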

How the data were processed

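Each RNA (COS1NR, MFH1NR, MSCs) was hybridized to 1 Agilent array for the whole rat genome. The authors deposited background-subtracted intensities from Feature Extraction, version 10.5.1.1 per the file headers and 9.1 in the submitters' processing notes, with bright spots taken from a scan at low gain. The deposited series table held the same intensities. Control spots and outlier spots (187 to 217 per array) were left out, spots of a probe were averaged in log2, and each array was scaled to its 75th percentile. Of spots that are not controls, 56.6% to 59.7% were well above background, and no spot was saturated. The median SD of 263 probes printed 10 times was 0.07 to 0.08 in log2. The number of arrays limits the precision. Probes were named by unversioned RefSeq mRNA accession through a gene table of GRCr8, which named 16802 of 41012 probes, so probes of a member under other identifiers were not used. Where 1 array of a ratio was not well above background, the ratio was bounded by the higher of the dim intensity and the lowest intensity well above background on its array. No test was made.

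The members and lists were chosen with earlier results of these data known. Named were the members, up to 3 genes of each list per direction, by mean log2 ratio, among those at least 2-fold from MSCs in the same direction in both, the integrin chains, Wwtr1, and the nearest gene of each member. One gene that this rule names is not reported here. Srf, Cd36 and the other list genes and markers named beside these were picked after their values were seen. Alternatives were other scalings, background correction, probe choices, filters, outlier spots kept and a 3-fold threshold. The counting was run on simulated data with large planted differences and no dim probes, and the rule for bounds on a few set values. This checks the code only. The normexp correction was run in limma 3.58.1 (R 4.3.3), and all else in Python 3.11.15 (numpy 2.4.6, pandas 2.3.3, matplotlib 3.10.9).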

Additional observations from a re-analysis of the deposited data

How the results depend on the processing

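Of 24 member ratios of at least 2-fold, 0 changed direction over up to 13 settings of scaling, background, probe choice and filters, and 5 fell under 2-fold in at least 1 of them (Fn1 in both lines, Ccn4 in MFH1NR over MSCs, and Thbs2 and Tnc between the lines). The 5 ratios under 2-fold all changed sign in at least 1 setting. Not every setting could move a ratio, so the number of settings overstates the check. The series table held the same intensities. The filters and the outlier spots left the member ratios measured on all arrays as they were. Probe choice could not move those of members with 1 probe. Without scaling, the median of all genes rose from 0.11 to 0.52 in COS1NR over MSCs and from 0.02 to 0.79 in MFH1NR over MSCs, and the medians of the members were -2.54 and -1.95. The member median of MFH1NR over MSCs was -2.19 with spike-in scaling, -3.26 with the second probe and -1.86 when genes dim on any array were dropped, which leaves out Postn. For MFH1NR over COS1NR it was 0.35 without scaling, 0.37 after quantile normalization and 0.78 with spike-in scaling. There, the count of members lower was 0 without scaling, with spike-in scaling and at 3-fold, and the count higher was 2 at 3-fold. The cause of these shifts was not tested. The normexp correction used the median spot intensity with an offset of 50, a form chosen after seeing the data. No paired analysis was possible because each cell type had 1 array, and for the same reason no array could be left out. The protein sequences were not used here, so the planned identities between members were not computed. Intensities near background, such as those of Postn in the lines and of Thbs1 and Ccn3 in COS1NR, are the least precise. With normexp the log2 ratio of COS1NR over MSCs was -2.84 for Thbs1 and -1.50 for Ccn3, in place of -3.48 and -1.99.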
